A study of Mus musculus with 18 samples.

Results

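The genes described here are those whose nascent RNA was higher at the S1 and S2 stages of fetal liver erythropoiesis than both before and after them. The method was 4sU-seq: newly made RNA takes up 4-thiouridine and is then biotinylated and purified, so that a library reports on transcription during the labelling period. For each gene, counts were divided by the library total and scaled to CPM, the count expected in a library of one fixed standard total, and the mean of 3 libraries was taken in each population. The score was the lower of the S1 and S2 means plus 1 CPM, divided by the higher of the S0-Low and S3 means plus 1 CPM. The 150 genes with the highest score were taken from the 32651 genes with a mouse symbol, of which 22274 had a count in any library. The measured levels in S0-Low, S1, S2 and S3 therefore chose the members, and their levels in these 4 populations are given as a description, with no test. S0-Medium and Lin+ libraries did not enter the score.

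All cells came from C57BL/6 fetal livers at e12.5 to e13.5, were rested for 6 h after sorting and then labelled with 500 µM 4sU for 45 min. There were 3 libraries of each of 6 sorted populations, all carrying no genetic change. The 5 erythroid populations lacked lineage markers and were separated by CD71, the transferrin receptor, and Ter119, an antigen of maturing red cells: S0-Low (CD71 low, Ter119-), S0-Medium (CD71 medium, Ter119-), S1 (CD71 high, Ter119-), S2 (CD71 high, Ter119 medium) and S3 (CD71 high, Ter119 high). By the study's scheme, S0-Low holds BFU-E together with haematopoietic stem and progenitor cells, so it is not erythroid only. CFU-E progenitors fall in S0-Medium and, later, S1, and cells that have begun terminal differentiation in S2 and S3. Lin+ cells carried lineage markers and were the non-erythroid group. The labels do not say whether replicates of a population came from separate litters or sorts, so the p-values below measure the spread between these libraries, which may be technical.

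Erythroid cells pass from S0 to S3 while their progenitor programme is shut down and the products of the mature red cell build up, and most of the well-known genes of this course either decline or increase towards S3. The cells of S1 and S2 lie at the switch between these programmes. They divide rapidly and take up iron through CD71 for heme synthesis.

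Library totals ranged from 9452476 counts in S0-Low replicate 3 to 40567976 counts in S1 replicate 1, so that 3 counts corresponded to between 0.0739 and 0.317 CPM. The sorted populations were checked against marker lists. The summed level of 9 erythroid markers was 553 to 1387 CPM in S0-Low, 1080 to 2726 in S0-Medium, 2875 to 7140 in S1, 5716 to 11800 in S2, 21923 to 28415 in S3 and 335 to 407 in Lin+. Macrophage markers summed to at most 3.59 CPM in S1 and 4 CPM in S2, against 968 to 1309 in Lin+. Megakaryocyte markers summed to 52.8 to 147 CPM in S1 and 41.8 to 100 CPM in S2, against 910 to 2220 in Lin+. Stem and progenitor markers summed to 448 to 556 CPM in S1, 1246 to 2098 in S0-Medium and 1610 to 2792 in Lin+. Neutrophil granule markers summed to at most 1.75 CPM in S1 and 0.712 CPM in S2, against 4112 to 6397 in Lin+. S0-Low, which enters the score, carried more of these non-erythroid markers than S1 and S2. Its stem and progenitor markers summed to 2101 to 3258 CPM, above its erythroid markers. Its neutrophil granule markers summed to 434 to 875 CPM, megakaryocyte to 378 to 479, endothelial and stromal to 107 to 252 and macrophage to 56.6 to 140. Their part in the scores was not tested. Libraries with the same replicate number deviated together from their population means over all tested genes: the correlation was 0.286 to 0.388 between S1 and S2 and 0.366 to 0.408 between S0-Medium and S1. The 6 libraries of S1 and S2 are thus not 6 separate sources. Replicate 3 stood apart in S1 and S2, where the chi-square per degree of freedom between libraries was 308 to 475 for pairs with replicate 3, against 79.3 and 122 for replicates 1 and 2.

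The score ran from 5.88 for Mypn to 1.73 for Ryk, with a median of 2.03 in the 150 members and 0.864 over all genes with a symbol and a count. The last genes inside were Tex21 (score 1.7387) and Ryk (1.7349), and the first outside were Metap1d (1.7339) and Aqp8 (1.7332), so the limit does not fall at a gap in the scores. All 150 members passed the filter on low counts, as did 69% of all genes. The filter read all 18 libraries, so a member could pass through S1 and S2, where the rule chose it to be high. The lower of the S1 and S2 means was at least 100 CPM in 30 members, at least 10 CPM in 96 and under 3 CPM in 27. Across the members, the median level was 5.83 CPM in S0-Low, 21.7 in S1, 23 in S2 and 4.52 in S3. S2 was above S1 in 78 of the 150 (52%), against 30.8% of all genes and 34.8% of those that passed the filter. The rule required both stages to be high, so nothing is read from this excess. S3 was below S0-Low in 98 members (65.3%, against 62.9% of all genes and 76% of genes with a symbol that passed the filter). This count dropped to 51 when libraries were scaled by TMM in place of their totals, since TMM factors were 0.579 to 0.735 in S3 and 1.10 to 1.28 in S0-Low. All 6 S1 and S2 libraries lay above all 6 S0-Low and S3 libraries in 47 members, against 0.548% of all genes; because the rule used these libraries, nothing is read from this count. With RLE factors it was 22 members, of 51 genes in all. Without replicate 1 it was 77 members of 425 genes and without replicate 3 it was 98 of 667, against 47 of 122 with all libraries.

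**Figure D1:**
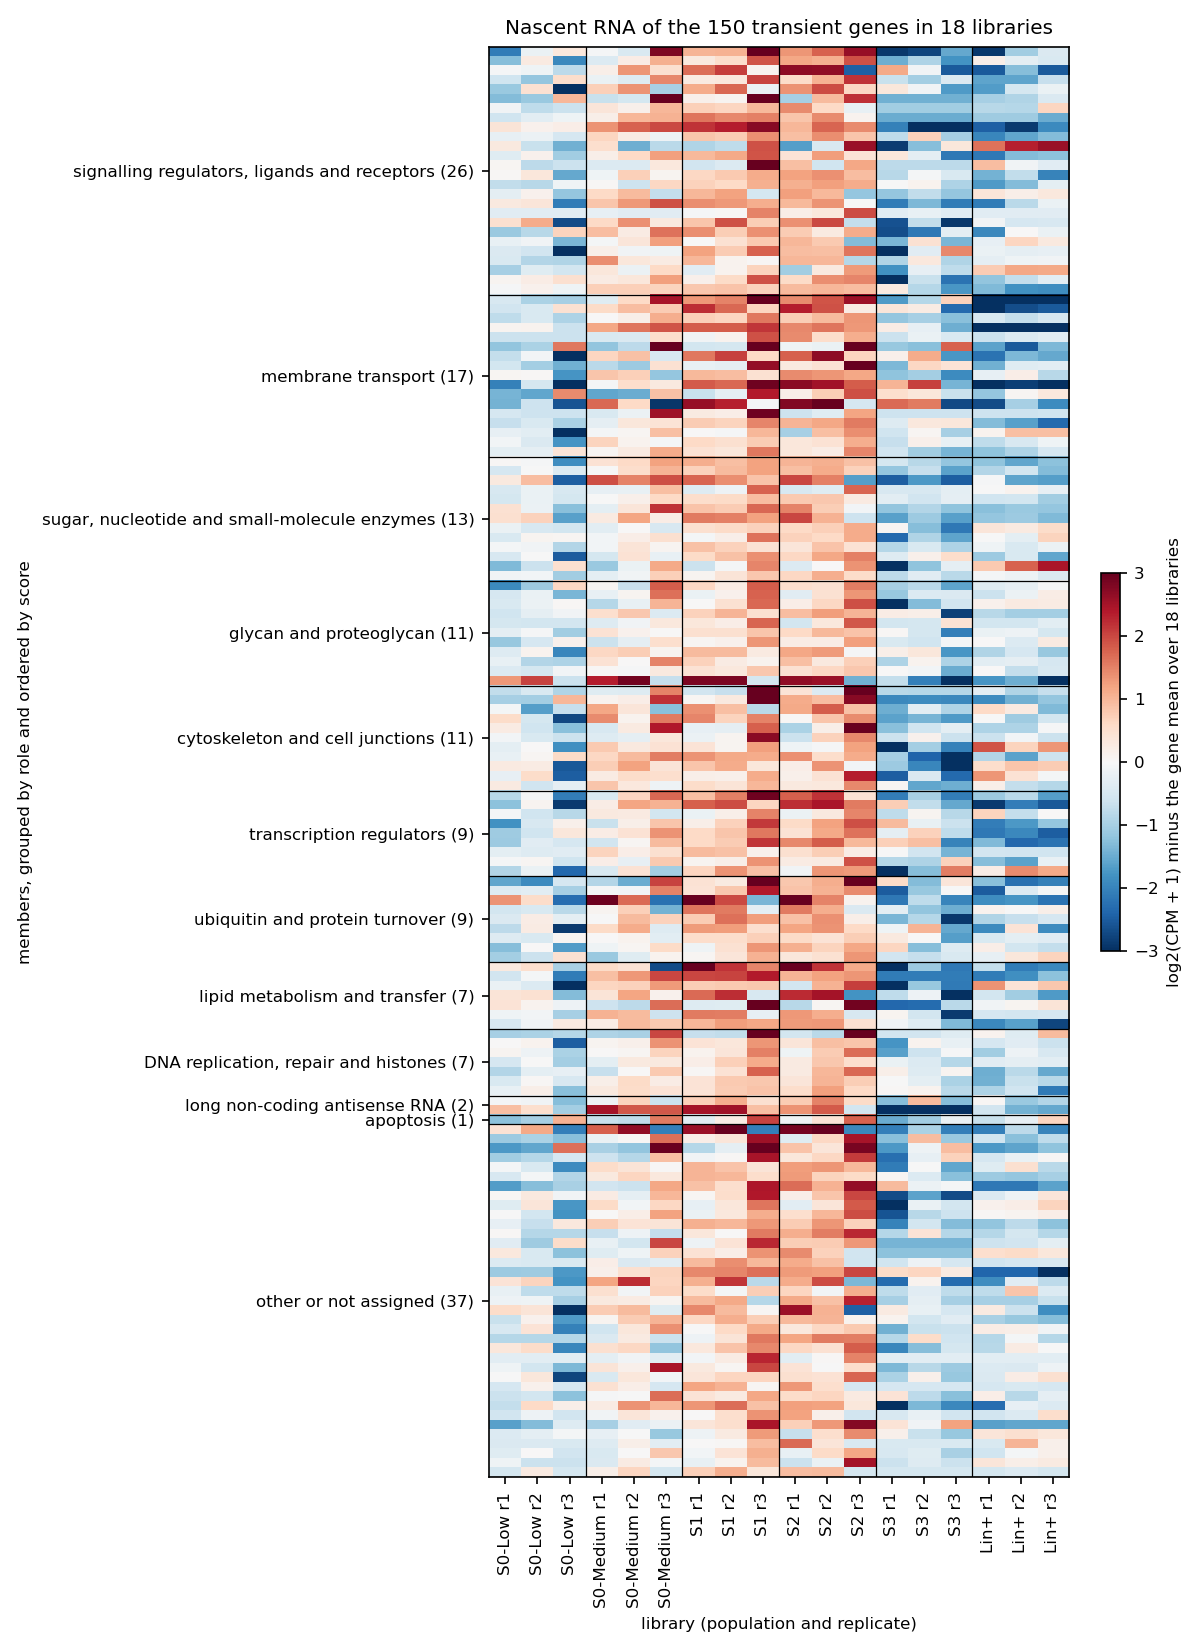
Each row is 1 of the 150 members, grouped by role and ordered by score within a role, and each column is a library; colour gives log2(CPM + 1) minus the gene's mean over the 18 libraries. The S1 and S2 columns are mostly red by construction, S0-Medium columns are intermediate, and S1 and S2 replicate 3 hold the darkest cells in many rows.

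The members varied in how far they depended on replicate 3. S1 and S2 were both above S0-Low and S3 within all 3 replicates in 95 members, against 2.25% of all genes, in 2 replicates in 46 and in 1 replicate in 9. The median score within a replicate was 1.46 in replicate 1, 1.54 in replicate 2 and 2.59 in replicate 3. Over 50% of the summed S1 and S2 signal came from replicate 3 in 57 members, from replicate 1 in 7 and from replicate 2 in 7, and over 80% came from replicate 3 in 17 members. Replicate 3 was the highest in both S1 and S2 in 74 members (49.3%, against 20.2% of all genes with a symbol that passed the filter) and the lowest in both in 35 (23.3%, against 26.8%). When replicate 3 was left out, 137 of the 150 members still scored above 1, and 77 were still among the highest 150.

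Mypn, which encodes the sarcomere protein myopalladin and ranked first, rests on replicate 3. Its level in replicates 1, 2 and 3, the order kept for values below, was 0.246, 0.164 and 17 CPM in S1 and 1.46, 0.411 and 24.8 CPM in S2, against 0 to 0.357 CPM in S0-Low and 0.0305 to 0.0556 CPM in S3. Only replicate 3 was high, and S1 replicates 1 and 2 overlapped S0-Low. Hist1h4m, a replication-dependent histone H4 gene, showed the same pattern, with 16.8 CPM in S1 replicate 3 and 17.2 CPM in S2 replicate 3 against at most 0.354 CPM in their other libraries. Of the 31-base stretches of the Hist1h4m transcript, 91.7% occur in other genes, so its counts could be split among copies. Tmem184a, a membrane protein, drew 77.4% of its S1 and S2 signal from replicate 3. C2cd4a went the other way: its S1 levels were 24, 39.3 and 0 CPM and its S2 levels 29.1, 35.2 and 0.079 CPM, and its replicate 3 value was 0 in S0-Low, S0-Medium and S3. C2cd4a was thus high in replicates 1 and 2 and near or at 0 throughout replicate 3.

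Membrane transporters and channels gave 17 members, of which 11 were in order within all 3 replicates. Slc26a1, a sulfate and anion exchanger, was measured at 8.99, 6.13 and 5.92 CPM in S0-Low, 32.9, 37.8 and 117 CPM in S1, 36, 49.8 and 81 CPM in S2 and 3.28, 6.65 and 21.4 CPM in S3. Every S1 and S2 library was above every S0-Low and S3 library. Atp7b, the copper-exporting ATPase, had 74.8, 75.4 and 44.3 CPM in S0-Low, 250, 251 and 315 CPM in S1, 191, 214 and 173 CPM in S2 and 82.2, 59.5 and 25 CPM in S3. These groups did not overlap either, and the S1 libraries all exceeded the S2 libraries. Abca3, a lipid transporter known from lung surfactant, was at 82.4, 102 and 73.3 CPM in S0-Low, 230, 220 and 420 CPM in S1, 234, 271 and 354 CPM in S2 and 61.7, 69.9 and 58.1 CPM in S3, again without overlap. Abca3 overlaps 3 other annotated genes, Abca17 among them. Atp1b2, a beta subunit of the sodium pump, differed among replicates, with 261, 187 and 87.5 CPM in S1, 287, 211 and 65.8 CPM in S2, 37.1, 40.6 and 76.4 CPM in S0-Low and 72.4, 66.3 and 10.3 CPM in S3. In replicate 3 its S2 level was below its S0-Low level.

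The red cell membrane and transport list of 19 measured genes held 2 members, Aqp1 and Aqp3, which encode a water channel and a channel for water and glycerol. Aqp1 was measured at 22.9, 23.3 and 400 CPM in S1, 31.1, 29.4 and 302 CPM in S2, 14.4, 17 and 104 CPM in S0-Low and 14.8, 13.7 and 118 CPM in S3. Its replicate 3 level was the highest in every population, and within each replicate S1 and S2 were above S0-Low and S3. Aqp3 had 43.2, 40.1 and 92.6 CPM in S1, 80.7, 70.6 and 43 CPM in S2, 2.07, 7.65 and 0 CPM in S0-Low and 24.1, 50.7 and 3.69 CPM in S3. S3 replicate 2 lay inside the S1 and S2 range. The list had a median score of 0.296, and 3 of its 19 genes scored above 1, a share equal to the 15.8% of all genes. Slc29a1, an equilibrative nucleoside transporter and the only member among 15 amino acid, nucleoside and monocarboxylate transporters, was at 171, 161 and 277 CPM in S1 and 206, 224 and 299 CPM in S2, above all its S0-Low libraries (51.8 to 72.3 CPM) and S3 libraries (75.9 to 127 CPM). Chloride and cation-chloride carriers were also present: mean levels in S0-Low, S1, S2 and S3 were 8.53, 49.8, 66.8 and 20 CPM for the chloride channel Clcn2, 7.18, 82.3, 107 and 42.6 CPM for the calcium-activated chloride channel Ano1, and 23.6, 53.7, 76.5 and 11.4 CPM for the potassium-chloride cotransporter Slc12a4. All 3 were in order within each of the 3 replicates, but their levels differed among replicates. Replicate 3 held 5.67% of the summed S1 and S2 signal of Ano1, 15% of that of Clcn2 and 28.3% of that of Slc12a4.

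**Figure D2:**
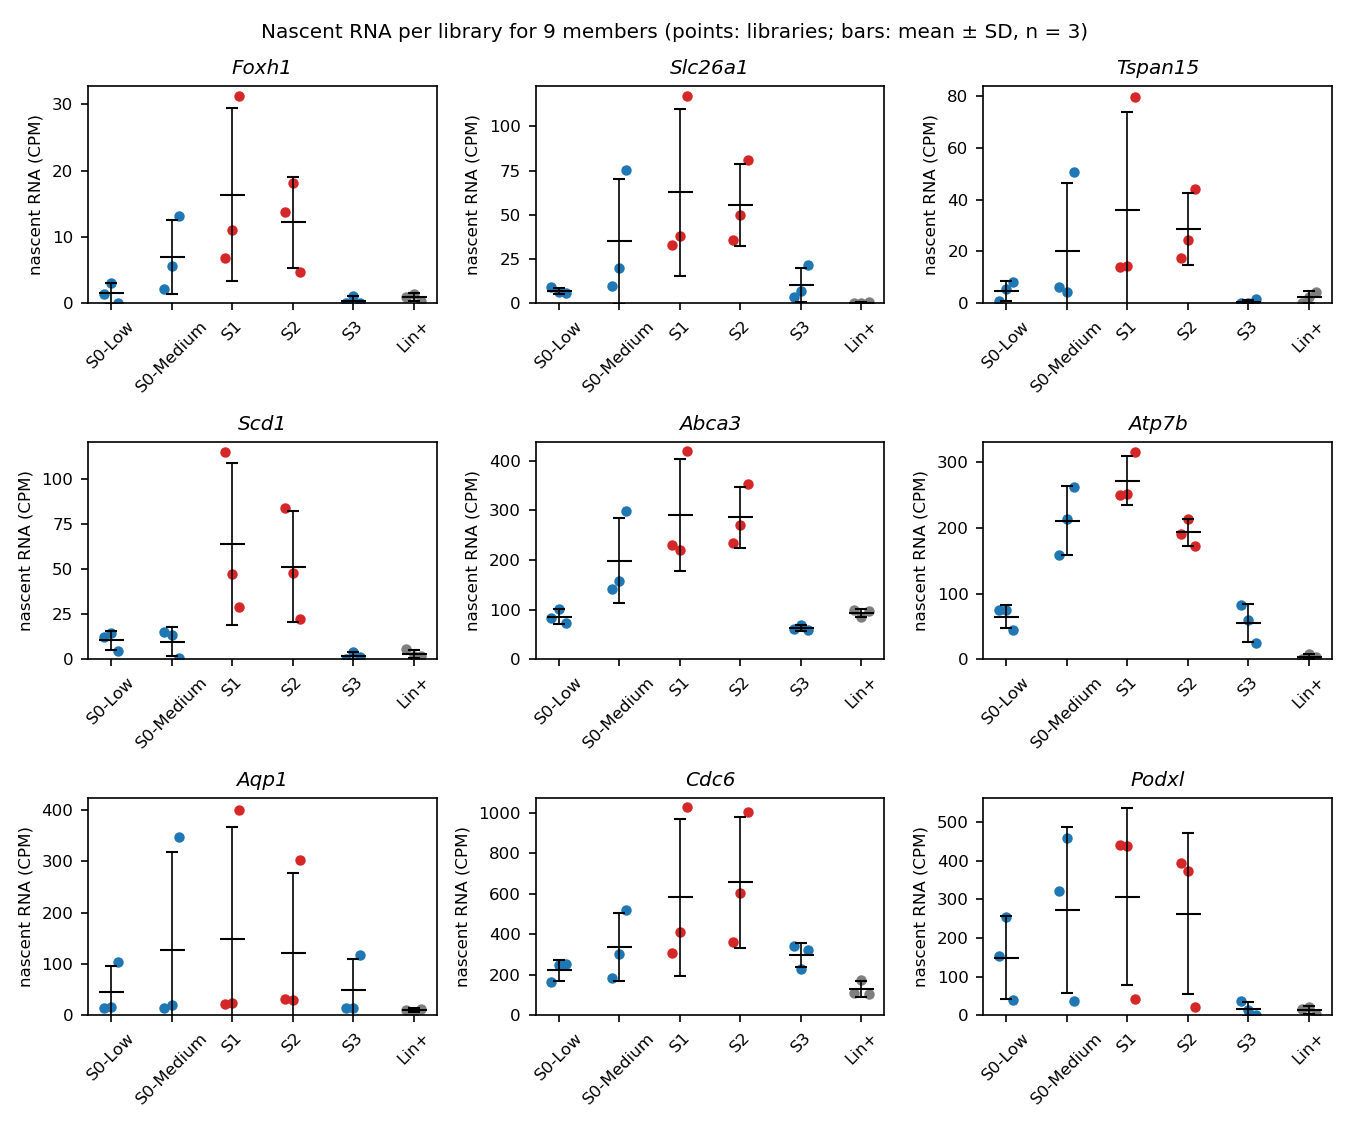
Points are the 3 libraries of each population in CPM (replicates 1, 2 and 3 from left to right), with bars for the mean ± SD (n = 3), and axes begin at 0, which cuts off bars that reach below it; S1 and S2 are red, the other erythroid populations blue and Lin+ grey. Atp7b, Abca3 and Slc26a1 show S1 and S2 libraries clear of S0-Low and S3, whereas Aqp1 reached 400 CPM in S1 and Podxl 42.5 CPM in S1 in replicate 3, far above and far below their other S1 libraries.

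Lipid metabolism and transfer gave 7 members. Scd1, the stearoyl-CoA desaturase that makes monounsaturated fatty acids, was measured at 115, 47.6 and 29.3 CPM in S1 and 83.8, 48.1 and 22.6 CPM in S2, against 4.55 to 14.5 CPM in S0-Low and 0 to 4.15 CPM in S3. All 6 S1 and S2 libraries lay above the others, and S0-Medium (15.2, 13.6 and 0.705 CPM) was still at the level of S0-Low. Acsl6, a long-chain acyl-CoA synthetase, had 16, 16.4 and 21.3 CPM in S1 and 7.59, 8.9 and 9.72 CPM in S2, was 0 to 3.13 CPM in S0-Low and had no count in any S3 library, where 3 counts would have been 0.0916 to 0.167 CPM. Vps13c, a lipid transfer protein, was at 769, 756 and 219 CPM in S1 and 637, 558 and 185 CPM in S2, and its replicate 3 level was the lowest in each of the 5 erythroid populations. Fabp5, a fatty acid binding protein, had 547, 650 and 32.4 CPM in S2 and was below its own S0-Low level (46.5 CPM) in replicate 3. Agpat3, an acyltransferase of phospholipid synthesis, had S1 levels of 13.6 to 14.4 CPM and S2 levels of 4.96 to 36 CPM. The cholesterol synthesis and uptake list held 0 members, although 13 of its 23 genes scored above 1 and its median score was 1.11.

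Enzymes of sugar, nucleotide and small-molecule metabolism gave 13 members, of which 12 were in order within all 3 replicates. Pfkm, a phosphofructokinase of glycolysis, was at 104, 90.7 and 113 CPM in S1, 98.9, 101 and 89.6 CPM in S2, 12.4 to 49 CPM in S0-Low and 21 to 33.1 CPM in S3. Minpp1, which removes phosphates from inositol polyphosphates, was at 225, 266 and 319 CPM in S1, 259, 301 and 225 CPM in S2, 96.6 to 136 CPM in S0-Low and 44.6 to 85.7 CPM in S3. Neither gene's groups overlapped. Rpia, of the pentose phosphate pathway, and Ampd2, an AMP deaminase, had the same order with smaller scores of 1.81 and 1.75.

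DNA replication, repair and histone genes gave 7 members. Cdc6, which loads the replicative helicase at origins, was the only member among 29 measured genes of the DNA replication list; its levels were 308, 410 and 1025 CPM in S1 and 362, 602 and 1002 CPM in S2, against 163 to 253 CPM in S0-Low and 230 to 342 CPM in S3. S1 replicate 1 lay below S3 replicates 1 and 3. Of the 29 listed genes, 23 scored above 1 with a median of 1.19, against 15.8% of all genes, whereas 0 of 22 mitosis and cytokinesis genes scored above 1 (median 0.434); the scores of the lists were computed with library totals only. Recql4, a DNA helicase, was at 99.8, 127 and 136 CPM in S1 and 108, 175 and 113 CPM in S2, against at most 84.1 CPM in S0-Low and 80.7 CPM in S3. Tonsl, of replication fork repair, Helq, a repair helicase, and Dclre1a, a crosslink repair nuclease, also had no overlap between these groups, with scores of 2.19, 1.94 and 2.

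Signalling regulators, ligands and receptors gave 26 members, 19 of them in order in all 3 replicates; as for every role, the group was formed after the members were seen, and nothing is read from its size. Tspan15, a tetraspanin partner of the ADAM10 protease, was at 14.1, 14.3 and 79.6 CPM in S1 and 17.5, 24.4 and 44.3 CPM in S2, against 0.737 to 8.15 CPM in S0-Low and 0 to 1.53 CPM in S3. Rgs12, a regulator of G protein signalling, was at 155, 160 and 527 CPM in S1 and 190, 265 and 587 CPM in S2. S0-Low replicate 3 of Rgs12 (185 CPM) exceeded S1 replicates 1 and 2. Sh2d4a, an SH2-domain adaptor, was higher in S1 than in S2, with 86.2, 97.8 and 128 CPM in S1 and 37.6, 63.4 and 50.4 CPM in S2, and reached 0.0333 to 3.73 CPM in S3. Shc4, an adaptor of receptor tyrosine kinases, Gab1, a docking protein, Traf4 and the Wnt receptor Ryk had no overlap between the 6 S1 and S2 libraries and the 6 others. Ryk libraries lay close together, with S1 at 54.3, 56 and 49.6 CPM, S2 at 59.9, 61.5 and 58.5 CPM and S0-Low at 29.8, 33.2 and 27.9 CPM. Podxl, a sialomucin grouped here with the 11 glycan and proteoglycan genes, was the only member among 18 measured genes of the EPO receptor and STAT5 list, with 440, 439 and 42.5 CPM in S1, 395, 373 and 22 CPM in S2, 154, 254 and 38.8 CPM in S0-Low and 0 to 36.8 CPM in S3. Its replicate 3 was low throughout, and S2 was then below S0-Low. Chsy1, which builds chondroitin chains, was at 309, 312 and 400 CPM in S1 and 335, 441 and 404 CPM in S2, above all S0-Low (108 to 217 CPM) and S3 (53.2 to 229 CPM) libraries.

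Transcription regulators gave 9 members, among them 2 known from early embryonic patterning. Foxh1, the forkhead partner of SMAD proteins in Nodal signalling, was at 6.88, 11.1 and 31.2 CPM in S1 and 13.7, 18.1 and 4.74 CPM in S2, against 0 to 3.07 CPM in S0-Low and 0 to 1.13 CPM in S3. Hesx1, a homeobox repressor of the forebrain and pituitary, was at 24.6, 27.3 and 10.4 CPM in S1 and 33, 39 and 20.6 CPM in S2, against 0 to 6.7 CPM in S0-Low and 1.53 to 11.2 CPM in S3. S1 replicate 3 of Hesx1 lay just below S3 replicate 1, and Foxh1 had no overlap. Lefty1, a Nodal antagonist in the signalling group, had mean levels of 2.47, 10.6, 6.46 and 2.4 CPM in S0-Low, S1, S2 and S3. The list of 18 erythroid transcription factors held 0 members and had a median score of 0.552. The heme synthesis (9 genes, median score 0.341) and globin (10 genes, 0.104) lists also held 0. The lists for ribosome biogenesis (21 genes, median score 0.763), serine, one-carbon and nucleotide synthesis (24, 0.851), iron handling (13, 0.845), mitochondrial import, fusion and biogenesis (13, 0.953), immediate early genes (17, 0.38), interferon response (19, 0.433), p53 targets (13, 0.664) and the integrated stress response (12, 0.161) held 0 members as well, and 57 replication-dependent histone genes held only Hist1h4m (0.625).

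Ubiquitin and protein turnover gave 9 members. Trim2, a ubiquitin ligase, was at 10.3, 9.06 and 104 CPM in S1 and 13.7, 16.8 and 125 CPM in S2, so replicate 3 carried most of the signal, and S3 replicate 1 (11.5 CPM) exceeded S1 replicates 1 and 2. Hecw1, another ubiquitin ligase, was the reverse, with 48.1, 18.3 and 0.901 CPM in S1 and 43.7, 12.8 and 4.27 CPM in S2. Cpd, the carboxypeptidase D of the secretory pathway, was at 401, 394 and 108 CPM in S1 and 392, 284 and 98.3 CPM in S2, against 75.2 to 95.5 CPM in S0-Low and 47 to 108 CPM in S3. Klhdc8b, a kelch-domain protein, had no overlap and mean levels of 2.89, 14.4, 11.2 and 2.04 CPM in S0-Low, S1, S2 and S3. Bcl2l11, which encodes the pro-apoptotic protein BIM, was the only member among 15 measured apoptosis regulators, with 20.4, 30.3 and 109 CPM in S1 and 23.7, 34.7 and 90.7 CPM in S2. In each replicate both stood above S0-Low (10.4, 12.4 and 54.4 CPM) and S3 (8.62, 12 and 22.5 CPM).

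The cytoskeleton and cell junction group had 11 members of which 3 were in order within all 3 replicates, and 9 of the 11 glycan genes were. Frmpd1, a scaffold with FERM and PDZ domains, was at 2.98, 3.67 and 48.1 CPM in S1 and 7.24, 6.3 and 24.4 CPM in S2. The non-coding gene 2900093L17Rik lies within the Frmpd1 span and was detected at up to 5.05 CPM in S1 replicate 3 while having no count in S0-Low, S3 or Lin+. The strand setting of the counting is not known, and whether the pair shared reads was not tested. Airn and Tsix, long antisense RNAs of imprinted and X-linked loci, made up the antisense group. Airn was at 223, 231 and 73.3 CPM in S1 and 100, 141 and 25.8 CPM in S2, against 18.4 to 73.4 CPM in S0-Low and 0 to 3.56 CPM in S3, and it overlaps Igf2r. The remaining 37 members had no role assigned. Tmem56 among them was at 310, 312 and 357 CPM in S1 and 277, 265 and 455 CPM in S2, with S0-Low at 33.4 to 53.1 CPM and S3 at 136 to 178 CPM, so for this gene the later side was the higher one.

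Because the same libraries chose the members, the rule was also run on 2 replicates at a time and the genes it took were read in the replicate left out. Of 150 genes chosen without replicate 1, 91 (60.7%) had S1 and S2 both above S0-Low and S3 in replicate 1, against 15.7% of all genes. In replicate 2 this held for 97 of 150 (64.7%, against 16.2%), and in replicate 3 for 87 of 150 (58%, against 18.4%). The median score in the left-out replicate was 1.14, 1.2 and 1.15, whereas the 150 members had a median of 2.03 in the libraries that chose them. The sets chosen on 2 replicates shared 110, 104 and 77 genes with the 150 members. These counts depended on the settings: with a pseudocount of 0.1 CPM they were 62, 68 and 54 of 150, with one of 10 CPM 101, 119 and 89, and with RLE factors 82, 88 and 73, where the shares of all genes were 14.6%, 12.2% and 11.9%.

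**Figure D3:**
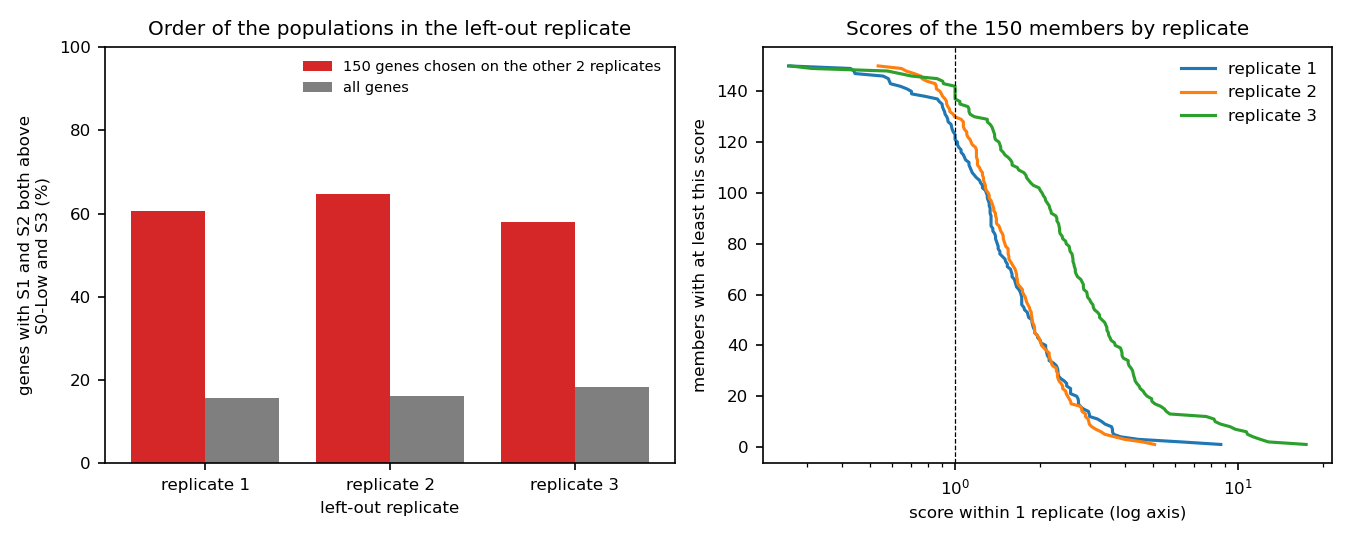
Left, bars give the percentage of genes with S1 and S2 both above S0-Low and S3 in the left-out replicate, for 150 genes chosen on the other 2 replicates (red) and for all genes (grey): 58% to 64.7% against 15.7% to 18.4%. Right, the number of the 150 members with at least a given score within each replicate (log axis, dashed line at 1); the replicate 3 curve, with a median of 2.59, lies to the right of the other two at scores above 1.

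S0-Medium, which the score did not use, lay between S0-Low and S1 in 132 of the 150 members (88%, against 16.7% of all genes). The rule itself placed S1 above S0-Low in every member, so nothing is read from this excess. S0-Medium was above S0-Low in 145 and above S1 in 13, and a median of 48.8% of the difference between S0-Low and S1 was already present in it, against 61.2% over all genes with a higher S1. Median levels ran from 5.83 CPM in S0-Low through 13.4 CPM in S0-Medium to 21.7 CPM in S1. All 3 S0-Medium libraries were above all 3 S0-Low libraries in 56 members, against 3.56% of all genes, but S0-Low was chosen to be low and S0-Medium libraries deviated with the same-numbered S1 libraries, so this comparison is not independent of the choice. Members differed in how high S0-Medium was: it was 9.83 ± 7.94 CPM (SD, n = 3) for Scd1, near its S0-Low level of 10.5 ± 5.25, and 211 ± 52.7 CPM for Atp7b, near its S1 level of 272 ± 37.4.

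Lin+ against S0-Medium was the comparison between populations outside the rule. It asks whether transient erythroid genes were also transcribed in the lineage-positive cells of the same organ, and it was tested for every gene in edgeR with all 18 libraries (quasi-likelihood test, Benjamini-Hochberg adjustment). Of the 150 members, 18 (12%) were lower in Lin+ at an adjusted p under 0.05, where 1.29% of the 17755 genes tested were lower. Being lower was not particular to the members. It held for 15 of 19 red cell membrane and transport genes, 5 of 9 heme synthesis genes and 5 of 10 globins. It held for 0 of 22 mitosis and cytokinesis genes and 0 of 21 ribosome biogenesis genes, and 1 heme synthesis gene was higher. At the same threshold 0 of the 150 members were higher in this edgeR fit, where 2.64% of genes tested were higher. At an unadjusted p under 0.05, 55 members were lower, against 5.67% of genes tested, and 0 were higher, against 10.4%. The counts depended on the fit: DESeq2 gave 36 lower and 0 higher (2.34% of all genes lower), edgeR with no filter 33 and 0 (0.972% of 30157 genes lower), with the replicate number as a block 40 and 1 (Cmpk2; 3.14% lower), and with only the 6 compared libraries 38 and 1 of the 141 members tested (Tbc1d9; 2.74% lower). The log2 fold change was negative in 129 members (86%, against 49% of all genes tested), with a median of -1.40 against 0.02. These include members nearly absent from both populations, such as Tac2 (0.0253 CPM in S0-Medium, 0 in Lin+) and 2900093L17Rik (0.062 and 0 CPM). With only the 6 compared libraries it was negative in 120 of 141 members (median -1.28, against 0.06). Where the filter required 10 or more counts from every compared library, it was negative in 88 of 106 (median -1.09, against -0.01). All 3 Lin+ libraries were below all 3 S0-Medium libraries in 69 members, against 9.85% of all genes, and above them in 4, against 15.7%. S0-Medium did not choose the members but moved with same-numbered S1 libraries. Among genes chosen on 2 replicates, S0-Medium exceeded Lin+ in the left-out replicate for 116 of 150 in replicate 1 (all genes 55.9%), 114 in replicate 2 (46.5%) and 108 in replicate 3 (41.1%). Erythroid markers summed to 1080 to 2726 CPM in S0-Medium and 335 to 407 CPM in Lin+, and neutrophil granule markers to 13.8 to 191 CPM and 4112 to 6397 CPM; their part in the differences was not tested. Fewer erythroid cells and less RNA per cell cannot be told apart in such bulk samples.

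**Figure D4:**
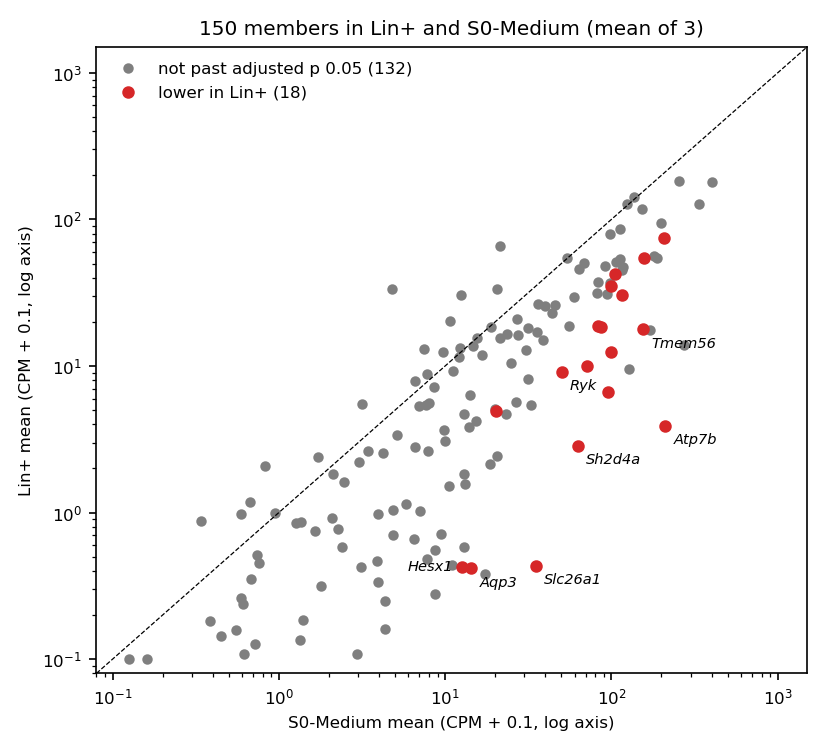
Each point is 1 of the 150 members, with its mean over 3 libraries in S0-Medium (horizontal) and Lin+ (vertical), as CPM + 0.1 on log axes; the dashed line marks equal levels. The 18 members lower in Lin+ at an adjusted p under 0.05 are red, and 129 of the 150 points lie below the line.

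Transporters accounted for 5 of the 18, from a role group of 17 members. Roles were assigned to members only and after they were seen, so there is no share over all genes. Nothing is read from the count of a role among the 18. Slc26a1 was at 9.72, 20.1 and 75.3 CPM in S0-Medium and 0.214, 0.19 and 0.602 CPM in Lin+, a log2 fold change of -6.65 (SE 1.00, edgeR adjusted p = 0.0011). Atp7b was at 158, 214 and 263 CPM in S0-Medium and 0.285, 7.77 and 3.41 CPM in Lin+ (log2 fold change -5.82, SE 0.74, edgeR adjusted p = 0.00028). Both genes had Lin+ libraries far below every S0-Medium library. Aqp3 was at 11.1, 17 and 14.3 CPM against 0, 0.761 and 0.201 CPM (log2 fold change -5.45, SE 1.28, edgeR adjusted p = 0.022), and Atp1b2 and Slc29a1 fell by 3.89 and 1.89 on the log2 scale. The call for Aqp3 was lost without S0-Medium replicate 2 or 3 or Lin+ replicate 1 or 3 (edgeR adjusted p 0.052 to 0.12), and that for Slc29a1 without Lin+ replicate 3 (edgeR adjusted p 0.051).

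Transcription regulators gave 3 of the 18, from a role group of 9 members, and nothing is read from this count either. Hesx1 was at 7.54, 15.7 and 14.2 CPM in S0-Medium and 0, 0.734 and 0.251 CPM in Lin+ (log2 fold change -5.24, SE 1.35, edgeR adjusted p = 0.037), and it passed the threshold in 9 of 14 alternative fits, being lost when any library but S0-Medium replicate 1 was left out (up to 0.16). Zbtb46, a zinc finger factor known from dendritic cells, fell by 3.00 on the log2 scale, and Cited4, a transcriptional co-activator, by 2.17, the latter in 7 of 15 alternative fits. Sh2d4a was at 47.8, 64.6 and 75.2 CPM in S0-Medium and 2.53, 1.63 and 4.11 CPM in Lin+ (log2 fold change -4.50, SE 0.84, edgeR adjusted p = 0.0057). The other genes that passed were Ryk, Tbc1d24, Pfkm, Minpp1, Pla2g12a (a secreted phospholipase), Alkbh8 (a tRNA-modifying enzyme), Tmem56, Helq and Recql4, with log2 fold changes from -3.09 for Tmem56 to -1.32 for Helq. Slc26a1, Atp1b2, Atp7b, Sh2d4a, Pla2g12a, Zbtb46, Tmem56 and Ryk passed in every alternative fit that tested them. Recql4 passed in 8 of 15, and was lost when any of the 6 compared libraries was left out. Tbc1d24 passed in 9 of 15, being lost with no filter and when any library but S0-Medium replicate 3 was left out (edgeR adjusted p up to 0.11). Single libraries also decided Alkbh8 (lost without S0-Medium replicate 2 or Lin+ replicate 2 or 3), Helq (without S0-Medium replicate 2 or Lin+ replicate 1 or 3), Minpp1 (without replicate 3 of either population) and Pfkm (without Lin+ replicate 2). Without S0-Medium replicate 2 the count of members lower in Lin+ was 11 (7.33%, against 0.72% of all genes), all among the 18, and without Lin+ replicate 3 it was also 11 (against 0.569%), of which 9 were among the 18.

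Some members were as high or higher in Lin+ without passing the test in the fit of all 18 libraries. In Lin+ against S0-Medium, Cmpk2, a mitochondrial nucleotide kinase induced by interferon, was at 31.9, 63.4 and 102 CPM in Lin+ and 7.79, 15.6 and 40.8 CPM in S0-Medium (log2 fold change 1.62, SE 0.91, edgeR adjusted p = 0.42). These libraries overlapped, but Lin+ was the higher one in each of the 3 same-numbered pairs, and the fit with the replicate block called Cmpk2 higher. Tbc1d9 had mean levels of 33.5 CPM in Lin+ and 4.71 CPM in S0-Medium (edgeR adjusted p = 0.38), and it was called higher when only the 6 libraries were fitted. Cpd, at 141 ± 9.81 CPM in Lin+ and 136 ± 85 CPM in S0-Medium (SD, n = 3), differed by less than the spread between S0-Medium libraries. Lin+ exceeded both S1 and S2 in 5 of the 150 members, against 49.2% of all genes, but the rule chose S1 and S2 to be high. A member that missed the threshold was not shown to be equal in S0-Medium and Lin+.

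RefSeq positions (GRCm38.p6) were found for 147 of the 150 members, 11 of them by an older symbol. Protein-coding genes made up 93.2% of them, against 82.9% of all genes matched, and the median span was 20.6 kb against 18.7 kb. Among protein-coding genes alone the order was reversed, with 21.7 kb in members and 23.6 kb in all. Chromosome 3 held 13 members (8.84%, against 4.58% of all genes) and chromosome 1 held 3 (2.04%, against 5.78%). The span of 83 members (56.5%, against 44.4%) overlapped another annotated gene, Slc26a1 with Idua among them. More than 10% of 31-base stretches were shared with other protein-coding genes for 14 of the 140 members with a protein-coding transcript. These include Hist1h4m, Lefty1 (25%), C2cd4a (18.7%), Tbc1d9 (13.4%) and Shc4 (11.2%), and the counts of these genes are uncertain.

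Members within 200 kb of each other formed 12 adjacent pairs, and 3 of these pairs joined 4 members on chromosome 15. Tonsl (76626237 to 76639929), Kifc2 (76659784 to 76668196), Foxh1 (76667829 to 76671614) and Recql4 (76703553 to 76710616) lay within 84.4 kb, and the ends of Kifc2, a kinesin, and Foxh1 overlapped. Their scores were 2.19, 2.29, 5.3 and 1.81. The 4 other genes in the same interval scored 0.456 to 1.09, with 2 above 1, and the 14 non-members within 150 kb of Foxh1 had a median score of 0.833. Within 150 kb, 4 of the 14 non-members scored above 1. The score set membership, so nothing is read from the difference between members and their neighbours. Kifc2 was in order in 2 of 3 replicates and drew 86.4% of its S1 and S2 signal from replicate 3. Elsewhere, C2cd4a and Vps13c lay 7.99 kb apart on chromosome 9, and both were lowest in replicate 3 in S1 and S2. Nudt19 and Rgs9bp lay 20.4 kb apart on chromosome 7. The other pairs were Gstt1 with Chchd10, Tbc1d24 with Abca3, BC021767 with Cgn, Grk4 with Rgs12, Kptn with Gpr77, 4930433N12Rik with Alkbh8, and Frmpd1 with 2900093L17Rik.

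**Figure D5:**
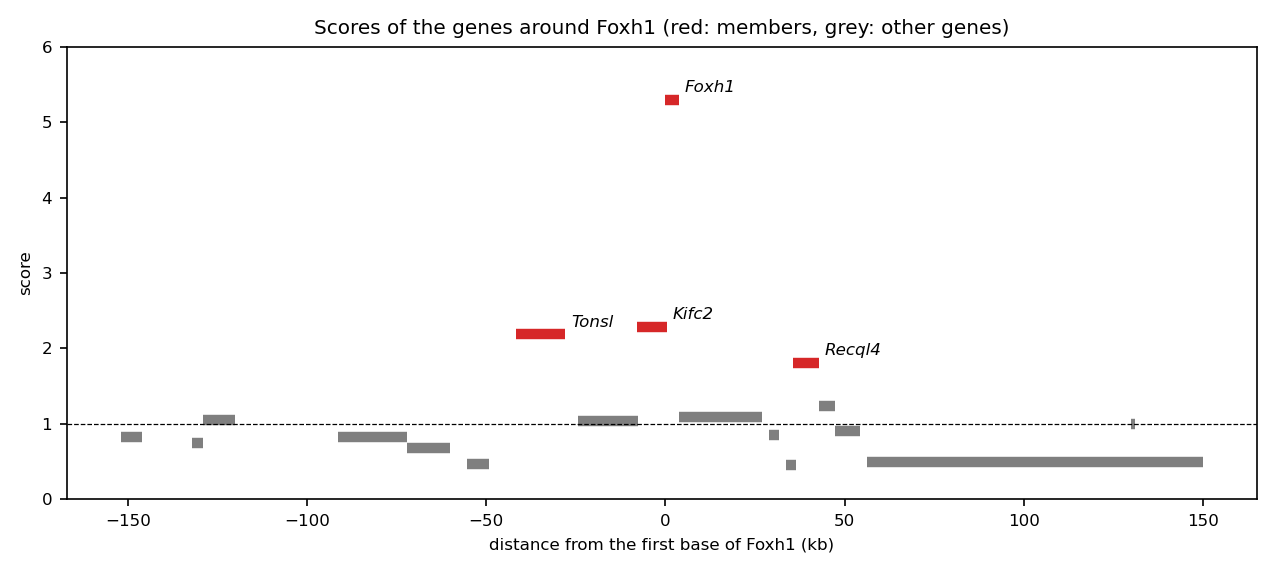
Bars mark the span of each RefSeq gene within 150 kb of Foxh1 as distance in kb from its first base, drawn at the height of its score; red bars are members, grey bars other genes, and the dashed line is a score of 1. The 4 members stand at 1.81 to 5.3 and all 14 other genes at 1.24 or below, a gap in the direction that the rule sets by construction.

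Promoter windows of 300 bases, 250 before and 50 after the annotated start, were available from RefSeq (GRCm38.p6) for 113 members and 14498 genes in all, with the first listed start of a gene used. GATA1 is the central erythroid factor that binds GATA sites, so the letters AGATAA and TGATAA were searched on both strands, and they occurred in 13.3% of member windows against 12.7% of all. The CACCC letters bound by KLF factors (CCACCC, both strands) occurred in 44.2% against 36.1%, CAGCTG in 23.9% against 16.3%, CCGGAA in 15% against 22.1%, CCAAT in 35.4% against 38.1%, TATAAA in 10.6% against 9.52%, CACGTG in 7.96% against 8.88%, TTCNNNGAA in 6.19% against 7.33%, the NRF1 motif in 6.19% against 7.88% and GGGCGG in 57.5% against 54.1%. The median GC content was 61% in member windows and 58.7% in all windows. A match is a description of letters and not a binding site. The windows below, 5′ to 3′ on the gene's strand, are shown because these are the 3 highest-scoring members with a GATA match, together with the first-ranked member, Mypn, which has none; capitals mark the GATA matches on either strand. They lie on chr5:108675316-108675615 (Slc26a1, minus strand), chr7:101316836-101317135 (Stard10, plus strand), chr15:98092339-98092638 (Pfkm, plus strand) and chr10:63203903-63204202 (Mypn, minus strand).

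Slc26a1: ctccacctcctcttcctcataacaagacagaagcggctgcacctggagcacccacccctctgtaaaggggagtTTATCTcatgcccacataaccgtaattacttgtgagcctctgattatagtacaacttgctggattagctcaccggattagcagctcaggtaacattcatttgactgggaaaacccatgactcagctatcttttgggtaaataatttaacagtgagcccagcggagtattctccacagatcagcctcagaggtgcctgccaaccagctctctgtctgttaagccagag
Stard10: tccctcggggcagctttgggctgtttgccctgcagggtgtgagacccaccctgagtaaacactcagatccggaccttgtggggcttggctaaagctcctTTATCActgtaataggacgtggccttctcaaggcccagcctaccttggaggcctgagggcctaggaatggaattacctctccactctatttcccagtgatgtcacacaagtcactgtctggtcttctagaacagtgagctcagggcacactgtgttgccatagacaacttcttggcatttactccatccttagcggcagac
Pfkm: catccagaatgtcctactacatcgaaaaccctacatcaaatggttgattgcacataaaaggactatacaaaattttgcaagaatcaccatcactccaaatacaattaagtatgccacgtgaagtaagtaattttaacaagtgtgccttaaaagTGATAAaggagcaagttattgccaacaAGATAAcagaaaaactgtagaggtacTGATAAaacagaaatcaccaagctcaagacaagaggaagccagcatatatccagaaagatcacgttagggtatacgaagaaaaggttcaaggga
Mypn: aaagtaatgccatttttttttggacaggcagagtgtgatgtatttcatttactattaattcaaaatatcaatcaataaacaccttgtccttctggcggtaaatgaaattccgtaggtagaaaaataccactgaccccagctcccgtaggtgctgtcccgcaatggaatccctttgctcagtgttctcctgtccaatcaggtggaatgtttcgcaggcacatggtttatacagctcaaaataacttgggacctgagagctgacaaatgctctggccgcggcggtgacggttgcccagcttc

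The Slc26a1 and Stard10 windows each hold 1 match, and the Pfkm window holds 3. Slc26a1 and Pfkm were both lower in Lin+ than in S0-Medium, while Stard10, a lipid transfer protein, was at 21.2 ± 22.5 CPM in S0-Medium and 15.5 ± 2.86 CPM in Lin+ (SD, n = 3) and drew 84.6% of its S1 and S2 signal from replicate 3.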

How the data were processed

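Nascent RNA was measured in 18 libraries from 6 sorted fetal liver populations, with 3 replicates each. The authors purified 4sU-labelled RNA, prepared stranded libraries without molecular identifiers and quantified them; the submitters' processing notes name kallisto 0.43.0 and GRCm38. The transcript set, the summing to genes and the strand setting are not given in the sources used here. The deposited values were whole-number counts per gene, and CPM were computed from them by library total, without a length correction, so levels were not compared between genes. Precision is set by totals of 9452476 to 40567976 counts.

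Groups were taken from the labels. Lin+ was tested against S0-Medium on the counts of all 18 libraries in edgeR 4.0.16 (TMM factors, filterByExpr, two-sided quasi-likelihood test, Benjamini-Hochberg adjustment, threshold 0.05), in R 4.3.3; DESeq2 1.42.0 was an alternative. The procedure was checked on simulated data. Members were read with Python 3.11.15. Other alternatives were RLE factors, library totals, other filters, globins left out, other pseudocounts, medians, a replicate block and single libraries left out.

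The members and gene lists were chosen with earlier results of these data known, and roles were assigned after the members were seen. The rule for named genes took the 20 members with the highest score, the 10 with the highest lower-of-S1-and-S2 mean, every member in a gene list, the 2 genes on either side of the limit, the 5 largest differences past the threshold in each direction in Lin+ against S0-Medium, and members within 200 kb of each other; other genes named were chosen after their values were seen.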

Additional observations from a re-analysis of the deposited data

How the results depend on the processing

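The choice of members depended on scaling and on replicate 3. Of the 150 members, 96 were again among the highest 150 with TMM factors, 77 with a pseudocount of 0.1 CPM, 95 with a pseudocount of 10 CPM, 79 with medians in place of means and 77 to 110 when 1 replicate was left out. The count of members without overlap was 22 with RLE factors (51 of all genes) and 67 to 98 with 1 replicate left out (370 to 667 of all genes), S3 was below S0-Low in 51 members with TMM and 57 with RLE, and 62, 68 and 54 genes were in order in left-out replicates 1, 2 and 3 with a pseudocount of 0.1 CPM. Members lower in Lin+ numbered 36 by DESeq2, 33 with no filter, 12 with at least 10 counts (106 members tested, 11.3%), 38 with only the 6 compared libraries (141 tested, 27%) and 11 to 17 with 1 library left out. Over all genes, of which 17755 were tested except for 30157 with no filter, 11989 with at least 10 counts, 16328 with only 6 libraries and 18615 to 19034 with 1 library left out, 416 were lower and 1250 higher by DESeq2, 178 and 549 with RLE, 293 and 813 with no filter, 187 and 284 with at least 10 counts, 447 and 1585 with only 6 libraries, and 106 to 190 and 104 to 465 with 1 library left out. Members higher in Lin+ numbered 1 with only 6 libraries (Tbc1d9).

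A replicate block gave 40 members lower and 1 higher (Cmpk2), and 557 genes lower and 827 higher over all. Deviations of same-numbered S0-Medium and Lin+ libraries correlated at 0.0263, 0.191 and 0.0681, not all above 0.1, and the labels do not say what the number marks, so the block was not made the reported fit. Against this, 5 of the 6 libraries correlated best with their own number, which hints at pairing, and a call gained or lost under the block is not read as a stronger or weaker effect.

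Of the 51 members named by rule, for which alternatives were tabulated, these missed the threshold and changed sign, on the log2 scale: Agpat3 to -0.06, -0.06 and -0.35 without S0-Medium replicate 1 or 2 or Lin+ replicate 1; Bcl2l11 to 0.71, Cpd to -0.38 and -0.04, Kptn to -0.33, Gstt1 to 0.91 and Hist1h4m to 5.08 with 1 library left out (full ranges Agpat3 -0.35 to 0.26, Bcl2l11 -0.87 to 0.71, Cpd -0.38 to 0.54, Gstt1 -1.28 to 0.91, Hist1h4m -1.35 to 5.08 and Kptn -0.33 to 0.64); and Gstt1 to 0.85 and Hist1h4m to 2.41 with the replicate block. Of 741 values for 51 named members, 677 kept direction and side of the threshold, 25 gained the threshold, 28 lost it and 11 changed sign. The cause was not tested. Low counts limit the 27 members under 3 CPM.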
